A study of Mus musculus with 12 samples.

Results

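The core circadian clock genes were measured by RNA-Seq in hernia-associated fibroblasts (HAFs), the fibroblasts of the lower abdominal muscle of Arom hum mice. The 10 genes Clock, Arntl, Per1, Per2, Per3, Cry1, Cry2, Nr1d1, Nr1d2 and Dbp were chosen by name, and all 10 were among the 13233 genes of the table. Arom hum mice carry the human aromatase gene, whose enzyme makes estrogen from androgen, and every group came from this genotype, the vehicle controls included. The 12 samples formed 4 groups of 3. Vehicle (ethanol and DMSO), E2 (estradiol, 10 nM), fulvestrant (100 nM) and E2 plus fulvestrant (10 nM and 100 nM) were each given for 48 h. Fulvestrant binds estrogen receptors and leads to their degradation. The cells were primary cultures at a single harvest time, so a clock gene was read once per culture and not through a cycle. No label or method used here states that replicates 1, 2 and 3 were separate mice or cultures, so the p-values measure the spread between these samples, which may be technical.

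In the clock, the proteins of Clock and Arntl (also named Bmal1) pair and switch on genes that carry E-box sequences. Among those genes are the Per and Cry genes, whose proteins return to the nucleus and repress the Clock and Arntl pair. A second loop runs through Nr1d1 and Nr1d2, the REV-ERB receptors, which repress Arntl at RORE sequences. Dbp is an output gene, and its protein activates further genes at D-box sequences. Cultured fibroblasts hold this clock, and serum, glucocorticoids and changes of medium can reset it. Per1 and Per2 answer such signals directly, through other promoter elements.

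Between 18827792 and 44040507 reads fell on the listed genes in a sample (median 31703872), and no gene had fewer than 10 reads in any sample. Values are normalized counts, which are read counts divided by a factor per sample. All 10 fibroblast markers were measured, whereas 9 of 39 markers of other cell types were in the table, with 0 of the 11 myogenic ones among them. Low counts had been removed, so a marker absent from the table may still have been expressed in some samples. Esr1, the estrogen receptor gene, was at 515, 247 and 283 in vehicle replicates 1, 2 and 3 and at 222, 101 and 76.2 with fulvestrant, where it fell by 1.46 on the log2 scale (adjusted p = 0.00099). Pgr, an estrogen target gene, rose by 1.88 with E2 against vehicle (adjusted p = 0.034). Replicate 1 stood apart in every group, and replicate number held 70.0% of the variance on the log2 scale summed over all genes, against 18.2% for treatment.

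Per length of exon, Nr1d1 was the most abundant of the 10 genes in vehicle, at 1139.9 ± 545 normalized counts per kb (SD, n = 3), followed by Nr1d2 at 785 ± 64.5 and Dbp at 775 ± 393. Per3 (263 ± 39.4), Per1 (261 ± 30.5), Clock (234 ± 26.6) and Cry2 (229 ± 47.8) formed a middle group whose neighbours did not differ beyond their spread. Cry1 (111 ± 18.1), Arntl (108 ± 10.7) and Per2 (89.0 ± 29.4) were lowest, again within their spread. The SDs of the top 3 overlapped, since Nr1d1 and Dbp each had a wide spread between replicate 1 and the others. Within each vehicle library, Nr1d1 was nevertheless the highest of the 3 per kb.

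**Figure D1:**
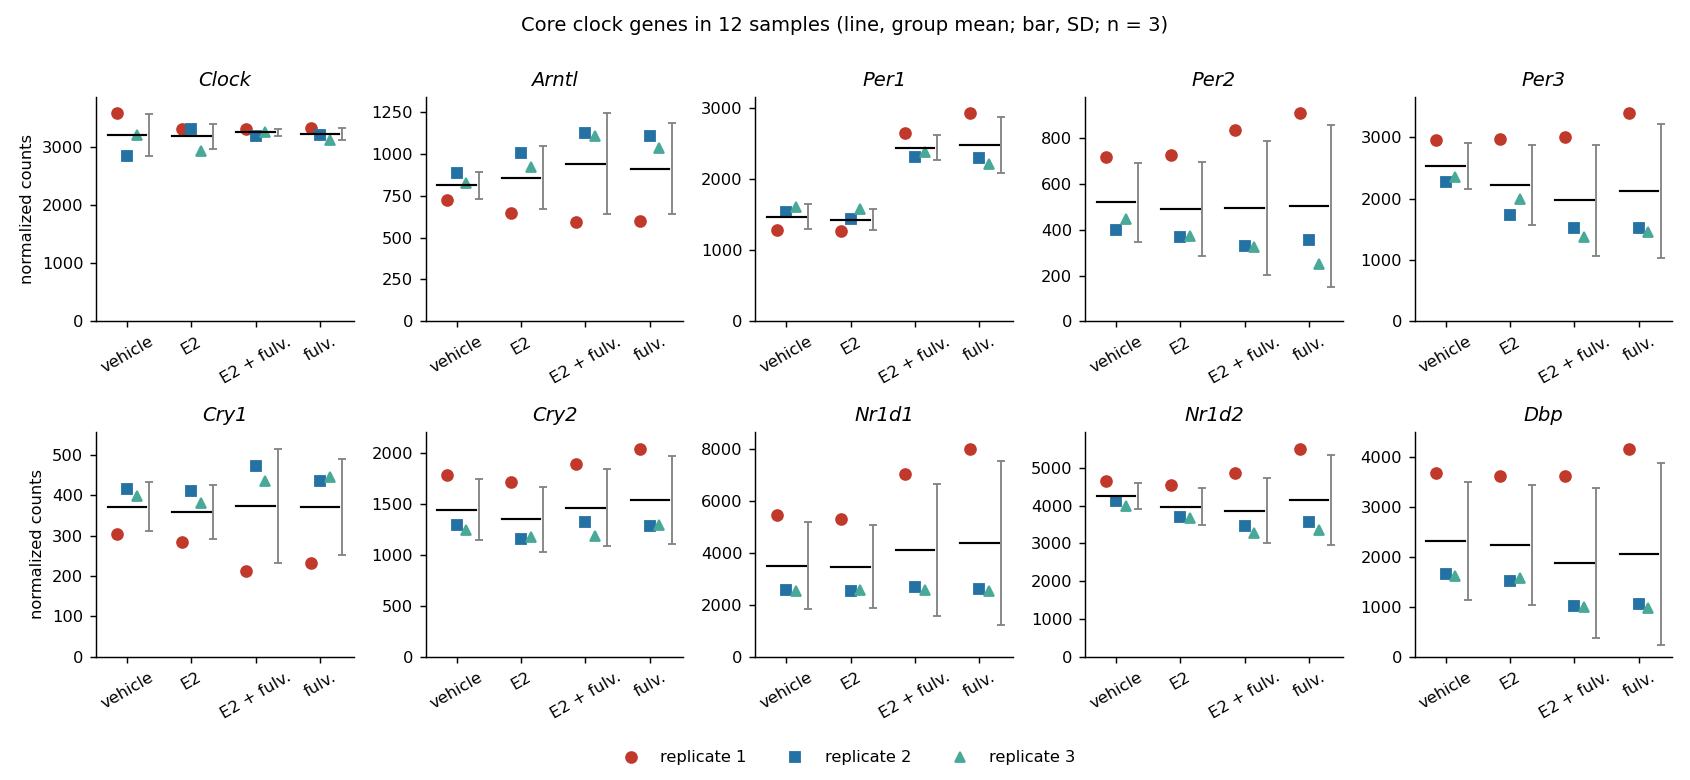
Normalized counts (vertical axis, from 0) of the 10 core clock genes in the 12 samples, by group (horizontal axis), with the group mean as a line and the SD beside it (n = 3). In the Per1 panel the 6 samples with fulvestrant sit above the 6 without it, from 2217 upwards against 1605 downwards; in 8 other panels the circles of replicate 1 stand away from replicates 2 and 3.

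Per1 was higher with fulvestrant in all 3 replicate numbers, with and without E2. Per1 encodes a period repressor that is induced quickly by resetting signals (ENSMUSG00000020893, GRCm38 chr11:69095217-69109960, plus strand, a protein-coding gene of 24 exon blocks). In replicates 1, 2 and 3, Per1 was at 1278, 1532 and 1605 normalized counts with vehicle and at 1270.4, 1442 and 1575 with E2. It was at 2641, 2311 and 2375 with E2 plus fulvestrant and at 2924, 2291 and 2217 with fulvestrant alone. The 6 samples with fulvestrant did not overlap the 6 without it, which held for Per1 alone of the 10 genes and for 4.3% of all genes.

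The log2 difference of Per1 was 0.75 for fulvestrant against vehicle (SE 0.12, 95% CI 0.47 to 1.02, adjusted p = 0.0028) and 0.73 for E2 plus fulvestrant against vehicle (SE 0.12, adjusted p = 0.0028). For E2 against E2 plus fulvestrant it was negative, Per1 being lower without fulvestrant (log2 difference -0.78, SE 0.12, adjusted p = 0.0027). The adjusted p-values come from limma over all 13233 genes on log2(normalized count + 1), with replicate number as a block, and calls required both an adjusted p below 0.05 and a fold above 1.2. Over all 12 samples, each comparison called Per1 alone of the 10 genes (10%). Of all genes, 12.5%, 12.7% and 9.6% were called in the same 3 comparisons, so the count of 1 lies near the general share. Without replicate 1 more of the 10 were called, as given below. The 3 comparisons share samples and are not independent of each other. In bulk samples, fewer cells of a kind and less RNA per cell cannot be told apart.

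Within replicate numbers, Per1 differed between fulvestrant and vehicle by 1.19, 0.58 and 0.47 on the log2 scale in replicates 1, 2 and 3. E2 plus fulvestrant against E2 gave 1.06, 0.68 and 0.59. Replicates 2 and 3 were matched across groups by label only. All 6 pairs were positive, and the value in replicate 1 was the largest of each 3. Treatment held 88.6% of the variance of Per1. Without replicate 1, Per1 kept its call in each comparison, at 0.52, 0.58 and -0.64. Without replicate 2, the call of E2 against E2 plus fulvestrant was lost (log2 difference -0.82, adjusted p = 0.060).

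The upstream sequence of Per1 is shown with those of Per3, Cry1 and Nr1d1 because these 4 windows hold clock motifs and the 4 genes moved in different ways. RefSeq promoter windows of 300 bases (GRCm38.p6, 250 before to 50 after a start) were given for 9 of the 10 genes, in 13 windows; Per2 had none. The 250 upstream bases are printed 5′ to 3′ on the gene's strand. Capitals mark an E-box CACGTG, an E-box prime CACGTT, a D-box TTATGNAA or TTACGNAA, or the RORE core AGGTCA, each on either strand (so CACGTT can read AACGTG and AGGTCA can read TGACCT).
Per1, chr11:69098699-69098948, plus strand: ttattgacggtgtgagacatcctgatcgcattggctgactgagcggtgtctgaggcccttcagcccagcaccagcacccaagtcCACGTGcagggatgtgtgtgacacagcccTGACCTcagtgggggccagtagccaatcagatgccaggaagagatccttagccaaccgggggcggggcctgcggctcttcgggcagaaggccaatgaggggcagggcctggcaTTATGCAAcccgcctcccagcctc
Per3, chr4:151044666-151044915, minus strand: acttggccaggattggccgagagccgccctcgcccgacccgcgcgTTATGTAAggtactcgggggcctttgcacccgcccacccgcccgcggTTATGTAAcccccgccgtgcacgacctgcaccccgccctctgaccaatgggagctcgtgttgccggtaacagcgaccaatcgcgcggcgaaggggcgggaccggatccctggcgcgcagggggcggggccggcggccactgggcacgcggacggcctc
Cry1, chr10:85185055-85185304, minus strand: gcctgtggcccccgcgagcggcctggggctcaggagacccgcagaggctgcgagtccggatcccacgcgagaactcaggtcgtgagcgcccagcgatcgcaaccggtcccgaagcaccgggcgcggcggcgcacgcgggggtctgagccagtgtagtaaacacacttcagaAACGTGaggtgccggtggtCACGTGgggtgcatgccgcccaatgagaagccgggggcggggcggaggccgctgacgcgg
Nr1d1, chr11:98775378-98775627, minus strand: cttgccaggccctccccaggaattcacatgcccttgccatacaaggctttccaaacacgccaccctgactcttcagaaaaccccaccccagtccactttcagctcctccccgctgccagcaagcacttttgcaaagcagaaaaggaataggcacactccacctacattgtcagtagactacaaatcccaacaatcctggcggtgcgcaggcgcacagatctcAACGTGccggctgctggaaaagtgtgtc

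The Per1 window held an E-box at bases -166 to -161, a RORE core at -137 to -132 and a D-box at -24 to -17, counted back from -1 just before the start. Per3 held 2 D-boxes and no E-box in its window, whereas Cry1 held an E-box at -60 to -55 with an E-box prime at -79 to -74. An E-box was in a window of 2 of the 9 genes (Cry1 and Per1) and of 8.09% of all 27025 genes with a window. An E-box prime was in a window of 3 (Cry1, Cry2 and Nr1d1) against 5.44% of genes, a D-box of 2 (Per1 and Per3) against 4.67%, and the RORE core of 4 (Arntl, Clock, Nr1d2 and Per1) against 18.1%. A second Per1 window, at another start, held the core of the cAMP response element, TGACGT, found in a window of 8.37% of genes. The estrogen response element, searched as GGTCA and its inverted repeat TGACC with 3 bases between them, was in none of the 13 windows and in a window of 0.0740% of genes. The glucocorticoid response element, searched as GNACA and TGTNC with 3 bases between them, was also in none of the 13 and in a window of 0.537% of genes. The RORE core contains the bases of an estrogen response element arm, so these searches overlap. Matches are given as a description, and sites outside these 300 bases were not searched.

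E2 against vehicle called none of the 10 clock genes, and 0 of the 10 had an unadjusted p below 0.05 in limma. Across all 13233 genes, 0.0756% were called and 1340 had an unadjusted p below 0.05. The log2 difference ran from -0.21 for Per3 (95% CI -0.53 to 0.11) to 0.06 for Arntl (95% CI -0.21 to 0.32). For Per1 it was -0.04 (95% CI -0.31 to 0.23). The narrowest interval was that of Cry2, the second cryptochrome repressor, from -0.23 to 0.03. These intervals bound an E2 difference and do not show that there was none. E2 plus fulvestrant against fulvestrant also called 0 of the 10 genes, with 0% of all genes called and 0 of the 10 at an unadjusted p below 0.05. The interaction of E2 with fulvestrant did the same, at 0% of all genes, with values from -0.03 for Nr1d1 to 0.16 for Per2.

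Most clock genes differed in level between replicate 1 and replicates 2 and 3. Replicate 1 differed from replicates 2 and 3 in 8 of the 10 genes, against 52.4% of all genes, and the 4 libraries of replicate 1 did not overlap the other 8 in the same 8 genes, against 45% of all genes. By log2 difference from replicates 2 and 3, the output gene Dbp was raised most in replicate 1, then Nr1d1, Per2, Per3, Cry2 and Nr1d2, while Arntl and Cry1 were lower there. Per1 and Clock were the exceptions. Replicate number held between 73.3% (Per3) and 94.7% (Nr1d1) of the variance of those 8 genes, 40.0% of that of Clock and 0.22% of that of Per1. The median size of the difference was 0.68 over the 10 genes and 0.31 over all genes, on the log2 scale.

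Dbp (ENSMUSG00000059824, chr7:45705088-45710203, plus strand) was at 3678, 3629.8, 3625 and 4174 normalized counts in replicate 1 with vehicle, with E2, with both agents and with fulvestrant alone. In replicates 2 and 3 it lay between 981 and 1669. Its log2 difference between replicate 1 and the others was 1.57 (SE 0.12, adjusted p = 8.7e-07). Of the Dbp exon bases, 18.0% lie opposite Sphk2, and reads were counted by strand.

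Nr1d1 (ENSMUSG00000020889, chr11:98767932-98775333, minus strand) was at 5444, 5311, 7040.4 and 8017 in the same 4 libraries of replicate 1. The other 8 libraries held it between 2514 and 2675. The difference was 1.31 (SE 0.08, adjusted p = 1.5e-07). Nr1d1 shares 8.55% of its exon bases with Thra on the opposite strand. Its paralog Nr1d2 (ENSMUSG00000021775, chr14:18204054-18239127, minus strand) ranged from 4533 to 5508 in replicate 1 and from 3280.0 to 4113 in the others, a difference of 0.42 (adjusted p = 0.00014).

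Per2 (ENSMUSG00000055866, chr1:91415982-91459324, minus strand), a period repressor whose phosphorylation sets the length of the cycle, ranged from 718 to 910.2 in replicate 1 and from 251 to 447 in replicates 2 and 3. Its difference was 1.17 (SE 0.13, adjusted p = 1.3e-05). Per3 (ENSMUSG00000028957, chr4:151003652-151044665, minus strand) ranged from 2960.0 to 3389 and from 1373 to 2353, a difference of 0.82 (adjusted p = 5.6e-05). Cry2 (ENSMUSG00000068742, chr2:92403646-92434043, minus strand) ranged from 1723 to 2046 and from 1153 to 1324, a difference of 0.58 (adjusted p = 7.0e-07). These 3 repressor genes were thus higher in replicate 1 without overlap.

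Cry1 and Arntl lay the other way. Cry1 (ENSMUSG00000020038, chr10:85131700-85185064, minus strand), the cryptochrome that represses late in the cycle, ranged from 212 to 303 in replicate 1 and from 381 to 474 in the others (log2 difference -0.73, adjusted p = 8.9e-05). Arntl (ENSMUSG00000055116, chr7:113207465-113314126, plus strand), the partner of Clock, ranged from 595 to 728 and from 828 to 1125 (log2 difference -0.64, adjusted p = 8.1e-05). Clock (ENSMUSG00000029238, chr5:76209868-76304792, minus strand) ranged from 3302 to 3576 and from 2847 to 3310.0, overlapped between the 2 sets, and did not pass the test (0.11, adjusted p = 0.069). Per1 had a difference of 0.00 (95% CI -0.20 to 0.21).

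Replicates 2 and 3 were alike. None of the 10 genes was called between them, 0% of all genes were, and 0 of the 10 and 198 of all genes had an unadjusted p below 0.05 in limma. The largest size among the 10 genes was 0.08, for Arntl and for Per2 (95% CI for Per2 -0.41 to 0.24). Replicates 2 and 3 nevertheless differed by more than counting noise, with a chi-square per degree of freedom of 4.3 to 23.5 within a group, against 179 to 224 for replicate 1 with either.

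**Figure D2:**
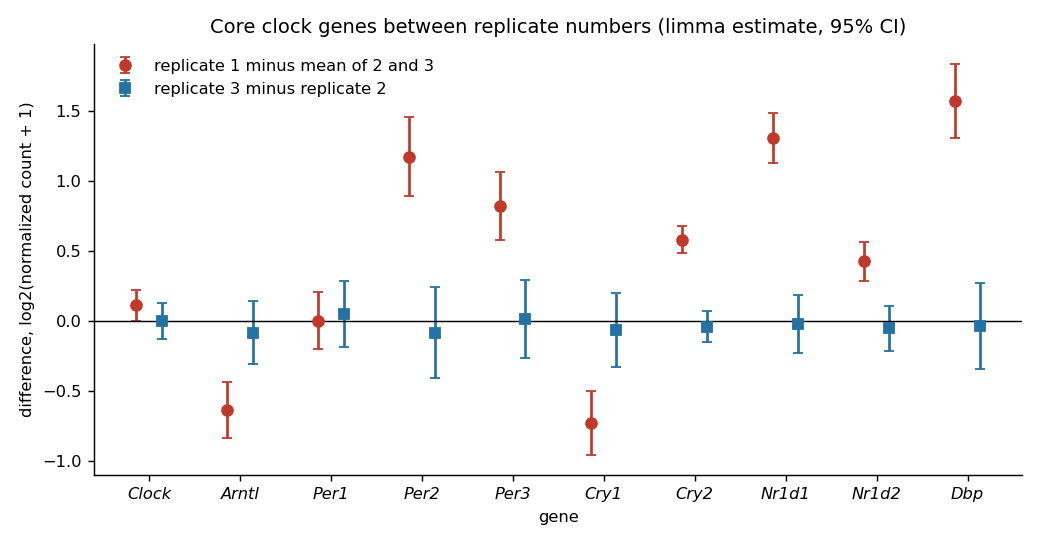
Log2 difference (vertical axis, limma estimate with 95% CI) of each core clock gene (horizontal axis) between replicate 1 and the mean of replicates 2 and 3 (circles) and between replicate 3 and replicate 2 (squares), over the 4 groups. Circles run from -0.73 for Cry1 to 1.57 for Dbp, whereas every square lies within 0.1 of 0.

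The fulvestrant difference of the clock genes also depended on replicate number. A term for the fulvestrant difference in replicate 1 minus that in replicates 2 and 3 was added to the fit after the data had been seen. It called 7 of the 10 genes, against 6.87% of all genes. The count was 2 without replicate 3 (2.44% of all genes), 3 without vehicle replicate 1 (3.1%), 4 without fulvestrant replicate 1 (3.05%) and 4 without the variance trend (3.78%). Replicate 1 is 1 number with 4 libraries, and the term compares it with the other numbers only.

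Dbp had the largest such difference, at 0.75 (SE 0.08, adjusted p = 0.00022). With fulvestrant against vehicle, Dbp differed by 0.18 in replicate 1 and by -0.67 and -0.72 in replicates 2 and 3. In counts, Dbp went from 1669 to 1049.8 in replicate 2 and from 1612 to 981 in replicate 3, but from 3678 to 4174 in replicate 1. E2 plus fulvestrant against E2 gave -0.58 and -0.66 in replicates 2 and 3, where Dbp went from 1528 to 1021 and from 1570.2 to 993. Over all 12 samples Dbp was not called (fulvestrant against vehicle -0.40, adjusted p = 0.12, and E2 plus fulvestrant against vehicle -0.48, adjusted p = 0.067).

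Per3 and Per2, both repressor genes, were likewise lower with fulvestrant in replicates 2 and 3 and not in replicate 1. Per3 was at 2264 and 2353 in replicates 2 and 3 of vehicle, at 1726 and 1986 with E2, at 1525 and 1373 with E2 plus fulvestrant and at 1519 and 1459.6 with fulvestrant. In replicate 1 it was at 2960.0, 2963, 3008 and 3389 in those groups. The extra difference in replicate 1 was 0.60 (SE 0.12, adjusted p = 0.0087), and over all 12 samples Per3 was not called (E2 plus fulvestrant against vehicle -0.44, adjusted p = 0.062). Per2 went from 398 to 355 and from 447 to 251 with fulvestrant in replicates 2 and 3 and from 718 to 910.2 in replicate 1, and its extra difference did not pass the test (0.61, adjusted p = 0.060).

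Nr1d1 and Nr1d2 were both higher with fulvestrant in replicate 1 relative to the others. Nr1d1 differed by 0.56 between fulvestrant and vehicle in replicate 1 and by 0.02 and 0.00 in replicates 2 and 3, an extra difference of 0.46 (SE 0.08, adjusted p = 0.0040). Nr1d2 differed by 0.25, -0.21 and -0.25, with an extra 0.35 (SE 0.07, adjusted p = 0.010). The fulvestrant samples of replicate 1 had the highest Nr1d1 and Nr1d2 of the 12 libraries.

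Arntl and Cry1 had the opposite sign. Arntl differed by -0.28 in replicate 1 and by 0.32 and 0.32 in replicates 2 and 3, where it went from 887 to 1106 and from 828 to 1035 (extra difference -0.46, adjusted p = 0.024). Cry1 differed by -0.38, 0.06 and 0.16 (extra difference -0.56, adjusted p = 0.019). Per1 was higher with fulvestrant at every number, with an extra 0.54 in replicate 1 (SE 0.08, adjusted p = 0.0020). Cry2 (0.10, 95% CI -0.07 to 0.28) and Clock (-0.11, 95% CI -0.31 to 0.09) did not pass.

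Leaving out replicate 1 changed which clock genes were called. Fulvestrant against vehicle then called 5 of the 10, against 17.5% of all genes. Per1 (0.52) and Arntl (0.32) rose, and Per2 (-0.50), Per3 (-0.63) and Dbp (-0.69, adjusted p = 6.9e-05) fell. E2 plus fulvestrant against vehicle called 5, against 13.2%, with Per1 (0.58) and Arntl (0.38) higher and Per3 (-0.67), Nr1d2 (-0.26) and Dbp (-0.70) lower. E2 against E2 plus fulvestrant called 3, against 12.2%, namely Per1 (-0.64), Per3 (0.35) and Dbp (0.62). E2 against vehicle again called 0, against 0.446%, with Per2, Per3 and Dbp at -0.18, -0.32 and -0.08. At an unadjusted p below 0.05 in limma there were then 3 of the 10 and 2066 of all genes, the 3 being Per3 (95% CI -0.50 to -0.14, adjusted p = 0.16), Nr1d2 (-0.14) and Arntl (0.17). The fit without replicate 1 had 8 samples, and its 2 numbers were the pair that lay close together.

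**Figure D3:**
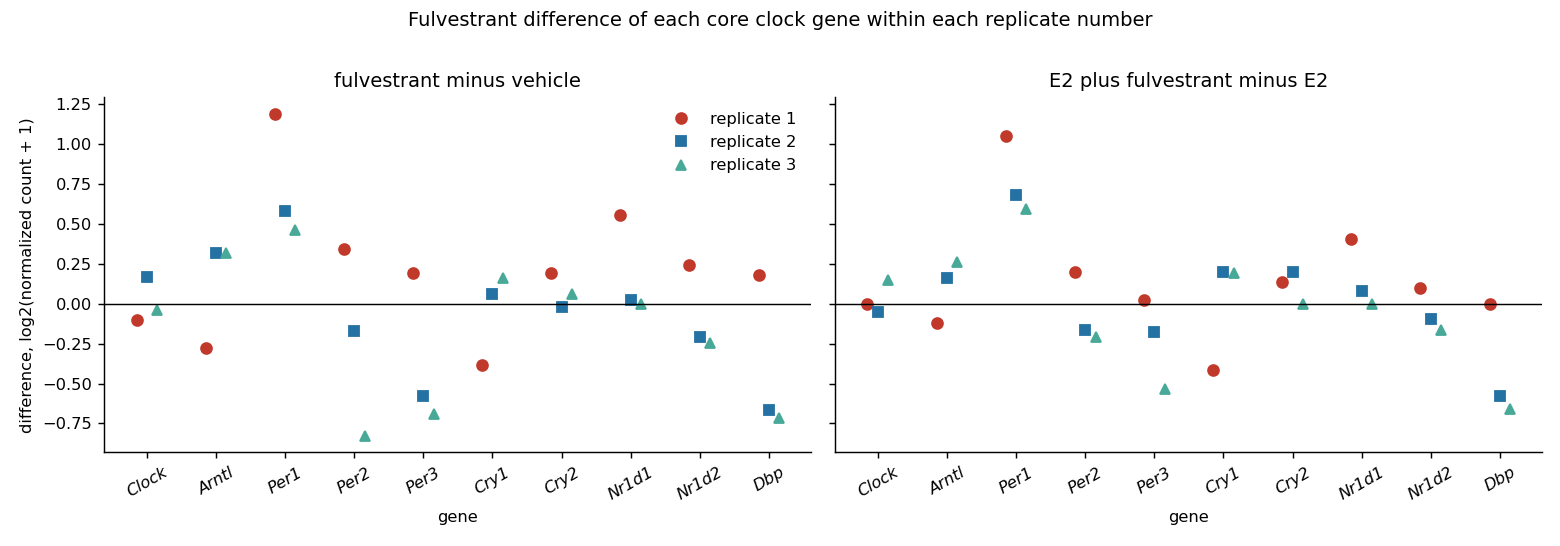
Difference in log2(normalized count + 1) with fulvestrant (vertical axis) of each core clock gene (horizontal axis) within each replicate number, against vehicle at left and between E2 plus fulvestrant and E2 at right. Each point is 1 pair of samples. Per1 is above 0 in all 6 pairs, from 0.47 to 1.19, and Dbp is at -0.58 or lower in replicates 2 and 3 with 0.18 and 0.00 in replicate 1.

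Other genes of the clock machinery were taken from a list of 26, of which 23 were measured. Over all 12 samples, fulvestrant against vehicle called 1 of the 23, E2 plus fulvestrant against vehicle 2 and E2 against E2 plus fulvestrant 1. These shares (4.35%, 8.7% and 4.35%) lay below the 12.5%, 12.7% and 9.6% of all genes. E2 against vehicle called 0, with 2 at an unadjusted p below 0.05 in limma. The median log2 difference of the 23 with fulvestrant against vehicle was 0.12, beside 0.01 over all genes and -0.02 over the 10 core genes.

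Nampt, the enzyme that makes the NAD precursor and whose gene is a clock output, was at 1672, 2264 and 2144 in vehicle replicates 1, 2 and 3 and at 2495, 3061 and 3119 with fulvestrant (log2 difference 0.52, SE 0.05, adjusted p = 0.00015). With E2 it was at 1679.8, 2149 and 2162, and with E2 plus fulvestrant at 2682, 3086 and 3174, a log2 difference of -0.58 for E2 against E2 plus fulvestrant (adjusted p = 7.2e-05). Within each replicate number, Nampt was higher with fulvestrant than without it. Hlf, a relative of Dbp that binds the same D-boxes, was at 81.6, 371 and 409 with vehicle and at 55.1, 247 and 303 with E2 plus fulvestrant (log2 difference -0.52, adjusted p = 0.019).

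Without replicate 1, fulvestrant against vehicle called 4 of the 23 (17.4%), a share like the 17.5% of all genes. Ciart, a repressor of the Clock and Arntl pair, rose by 0.95 (adjusted p = 0.0018), from 104 and 106 to 222 and 186. Nampt rose by 0.49, and Nfil3, which represses at D-boxes, by 0.30 (adjusted p = 0.044). Tef, the other relative of Dbp, fell by 0.32 (adjusted p = 0.0083), from 3716 and 3739 to 2942 and 3021. E2 plus fulvestrant against vehicle called the same 4 with Hlf, 5 in all (21.7%, against 13.2% of all genes). E2 against E2 plus fulvestrant called Nfil3, Ciart, Nampt and Csnk1e, a kinase that phosphorylates period proteins, at -0.45, -0.60, -0.54 and -0.27 (17.4%, against 12.2% of all genes). Nfil3 and Wee1 were also on a list that the study drew from these samples, which is no independent evidence of their direction.

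Between replicate 1 and the others, 18 of the 23 were called (78.3%, against 52.4% of all genes), 9 higher and 9 lower. Hlf was lower in replicate 1 (log2 difference -2.17, adjusted p = 1.4e-08) although Dbp and Tef (0.81) were higher there. Bhlhe41, a repressor of the Clock and Arntl pair, was higher (1.51) and Nfil3 lower (-0.80). The fulvestrant difference depended on replicate 1 for 2 of the 23 (8.7%, against 6.87% of all genes), Tef (0.37, adjusted p = 0.025) and Wee1, a kinase that holds back entry into mitosis (0.42, adjusted p = 0.034). Wee1 was at 991 with fulvestrant in replicate 1 against 662 with vehicle, and at 602 and 634 against 621 and 609 in replicates 2 and 3.

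**Figure D4:**
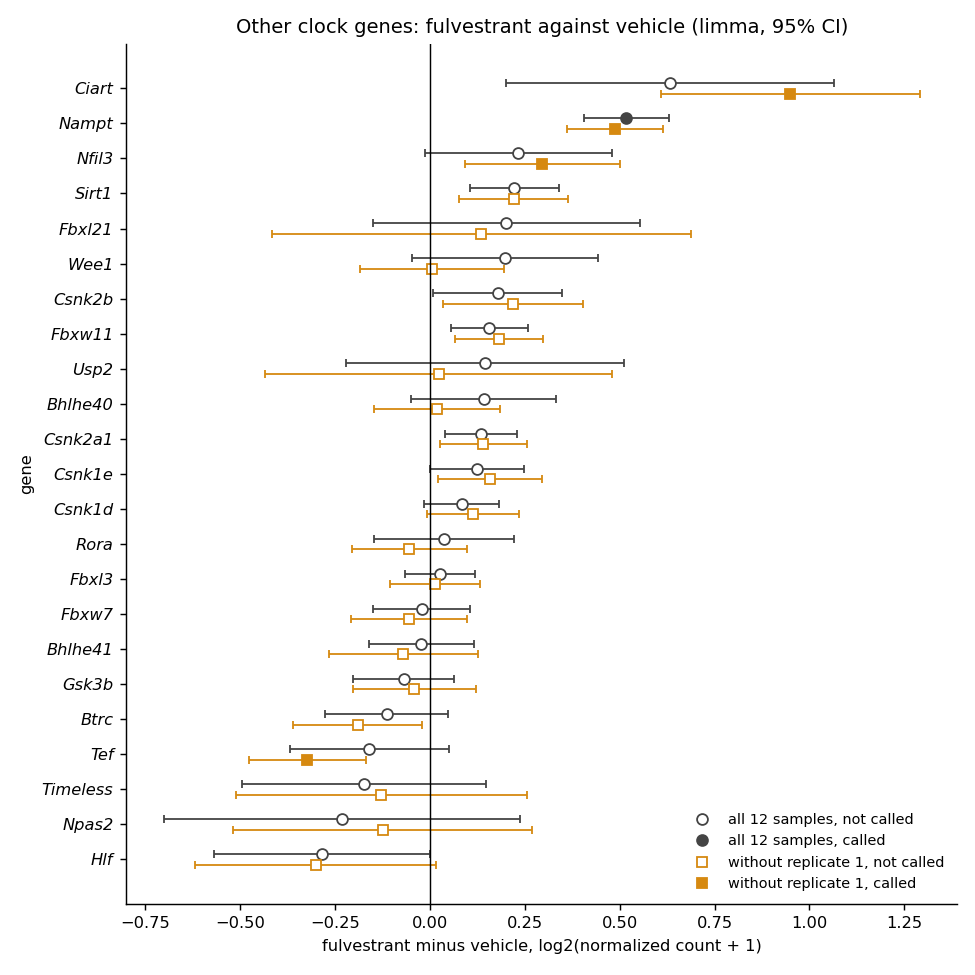
Log2 difference between fulvestrant and vehicle (horizontal axis, limma estimate with 95% CI) of 23 other clock genes (vertical axis), over all 12 samples (circles) and without replicate 1 (squares). Filled symbols passed the test. Nampt is filled in both fits, at 0.52 and 0.49, and Ciart, Nfil3 and Tef are filled without replicate 1.

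Genes that answer resetting signals were set beside the clock genes. Of 12 measured genes of a glucocorticoid and cAMP list, 7 rose and 1 fell with fulvestrant against vehicle (66.7% called, against 12.5% of all genes), and 5 were called between replicate 1 and the others (41.7%, against 52.4%). Fkbp5, a chaperone gene induced by the glucocorticoid receptor, was at 307, 956 and 941 with vehicle and at 9974, 4136 and 3957 with fulvestrant (log2 difference 3.07, SE 0.55, adjusted p = 0.0044). Tsc22d3, another such target, was at 2925, 1329 and 1231 and at 8903, 1874 and 1867 (0.90, adjusted p = 0.017). Fkbp5, Klf15 and Pdk4 of this list were also on a list that the study drew from these samples, which is no independent evidence of their direction. Averaged with and without E2, the fulvestrant difference in replicate 1 and in replicates 2 and 3 was 4.88 and 2.18 for Fkbp5 and 1.58 and 0.56 for Tsc22d3. For Sgk1, a further target, whose value in replicate 1 lay furthest below the others in this list, it was 0.59 and 0.97, and the list as a whole had a median extra difference in replicate 1 of 0.07, with 3 of 12 called (25%, against 6.87% of all genes), 2 higher and 1 lower. Of 21 immediate-early genes, 15 rose with fulvestrant (71.4%, against 12.5% of all genes), and 17 were lower and 2 higher in replicate 1 (90.5% called, against 52.4%). The extra fulvestrant difference in replicate 1 was called for 8 of the 21 (38.1%, against 6.87%), 7 higher and 1 lower, with a median of 0.30. Atf3, a stress-induced transcription factor gene, was at 13.2 in replicate 1 of vehicle and at 2799.5 and 2418 in replicates 2 and 3. The summed normalized counts of the 21 genes lay between 23825 and 43981 in replicate 1 and between 43549 and 67373 in the others.

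Markers of fibroblasts and of other cells differed by replicate number. Of the 10 fibroblast markers, 8 were called between replicate 1 and the others (80%, against 52.4% of all genes), 3 higher and 5 lower, from -3.11 for Thy1 to 0.97 for Col1a2. The 3 measured of 5 mural markers (Myh11 and Cspg4 higher in replicate 1, Mcam lower) summed to between 3316 and 4392 in replicate 1 and to between 1977 and 2635 in replicates 2 and 3. The 1 measured of 6 endothelial markers, Tek, lay between 58.4 and 83.7 and between 157 and 277, and the 1 of 5 adipocyte markers between 23.9 and 57.1 and between 62.1 and 103. The sums of the 2 measured macrophage and leukocyte markers (172 to 389 and 90.7 to 182) overlapped, although Lyz2 was called higher in replicate 1 (1.48). S100b, a glial marker, was called higher in replicate 1 (1.42) and in E2 against E2 plus fulvestrant (0.91). With fulvestrant against vehicle, 3 of the 10 fibroblast markers were called (30%, against 12.5% of all genes), each lower, namely Lum (-1.18), Col3a1 (-0.49) and Col1a1 (-0.43). Without replicate 1, 6 of the 10 were called (60%, against 17.5%), 5 lower and 1 higher. Over all 12 samples, none of the 9 measured markers of other cells was called with fulvestrant against vehicle. Without replicate 1, Tek was called lower in that comparison (-0.52) and in E2 against vehicle (-0.73). It was also called lower in E2 than in E2 plus fulvestrant (-0.63), so its fulvestrant difference had opposite signs with and without E2. E2 plus fulvestrant against vehicle did not call Tek (-0.10). In the fit on all 12 samples Myh11 was at 1.25 with fulvestrant against vehicle (adjusted p = 0.056 in limma). In that fit, 1 of the 2 macrophage and leukocyte markers was called lower with E2 plus fulvestrant against vehicle (-0.96). The 16 proliferation genes summed to between 3378 and 4127 and to between 4732 and 6607. Of these 16, 2 were called with fulvestrant against vehicle (12.5%, as over all genes) and 3 with E2 plus fulvestrant against vehicle (18.8%, against 12.7%), and without replicate 1 the counts were 6 (37.5%, against 17.5%) and 5 (31.2%, against 13.2%), each gene higher. The part of these values in the clock gene differences was not tested, and what replicate 1 shared beyond its number is not given in the sources used here.

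The genes most like 3 of the clock genes were found by Pearson correlation over the 12 samples after the mean of each replicate number was subtracted, as a description. Dbp was followed by Sept6, Gbp3 and Tbc1d7 (r = 0.97 for each). Nr1d1 was followed by C3 and Dennd6a (0.97 for each) and Arhgef2 (0.96). Arntl was followed by Suv39h2 (0.94), Ddx23 (0.93) and Rnf121 (0.93). The points share libraries and treatment groups.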

How the data were processed

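RNA was measured in 12 samples of primary HAFs. The authors isolated total RNA, depleted ribosomal RNA and sequenced stranded paired-end libraries. Per the labels and the study's methods, they trimmed reads with Trimmomatic 0.39, aligned to mm10 with STAR 2.5.2, counted by strand with HTSeq 0.13.5, removed low counts and scaled with DESeq2 1.37. The deposited values are a signal, normalized counts, and 100% were whole reads times 1 factor per sample (tolerance 0.01 reads). The study names batch adjustment, but the batches are not given in the sources used here.

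Groups and replicate numbers came from the sample titles. Symbols and positions came from GENCODE for GRCm38 (mm10), with a symbol for 13149 of 13233 identifiers, and promoters from RefSeq (GRCm38.p6). All 13233 genes were fitted with limma 3.58.1 in R 4.3.3 on log2(value + 1), with group and replicate number as terms, a variance trend and Benjamini-Hochberg adjustment. Differences on this scale understate the change of low genes. Same-numbered samples deviated together in all 18 pairs (correlation 0.63 to 0.92), but so did replicate 2 of one group with replicate 3 of another (0.63 to 0.79). Without replicate 1, the difference of replicates 3 and 2 correlated between groups by -0.17 to 0.18, and over 0.1 in 1 of 6 pairs of groups. The numbers thus set replicate 1 apart and did not pair replicates 2 and 3. The replicate block was kept as planned, and a block of replicate 1 against the others was an alternative. The scripts were tested on simulated data. Every clock gene was named with values. Other clock genes were named where called in a treatment comparison, and up to 4 of each other list in a comparison by size; Wee1, Bhlhe41 and Tek were named after their values were seen. The members and lists were chosen with earlier results of these data known. Depth limits the precision of low genes, and no count of 0 occurred.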

Additional observations from a re-analysis of the deposited data

Results flagged for a closer look

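The fulvestrant difference of 7 clock genes differed between replicate 1 and replicates 2 and 3 in limma, in a term added after the data had been seen. The difference in replicate 1 minus that in the others was 0.54 for Per1 (adjusted p = 0.0020), 0.60 for Per3 (adjusted p = 0.0087), 0.46 for Nr1d1 (adjusted p = 0.0040), 0.35 for Nr1d2 (adjusted p = 0.010) and 0.75 for Dbp (adjusted p = 0.00022). It was -0.56 for Cry1 (adjusted p = 0.019) and -0.46 for Arntl (adjusted p = 0.024). Replicate 1 gave 4 libraries to this term and replicates 2 and 3 gave 8. Per1 and Dbp kept the call in each of the 21 alternatives run, whereas Arntl lost it in 9, Cry1 in 6, Per3 and Nr1d2 in 4 each and Nr1d1 in 1. The cause was not tested.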

How the results depend on the processing

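Of 9 comparisons, 5 kept their count of clock genes called in every alternative, and 4 did not. Leaving out replicates or single libraries gave 0 to 3 of the 10 genes for E2 against E2 plus fulvestrant (1 with all samples; 3 without replicate 1, 2 without fulvestrant replicate 1 and 0 without replicate 2, beside 12.2%, 11.7% and 2.58% of all genes). It gave 1 to 5 for fulvestrant against vehicle (5 without replicate 1, 4 without vehicle replicate 1, 3 without fulvestrant replicate 1, beside 17.5%, 11.4% and 15.6%) and 1 to 5 for E2 plus fulvestrant against vehicle (5, 4 and 3 for the same, 2 without E2 replicate 1, beside 13.2%, 11.2%, 14.5% and 12.8%). For the fulvestrant difference by replicate 1 it gave 2 to 8 (2 without replicate 3, 3 without vehicle replicate 1, 4 without fulvestrant replicate 1, beside 2.44%, 3.1% and 3.05%).

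The fit with no replicate block on all 12 samples kept Per1 in the same 3 comparisons, as the only gene of the 10, although all genes called went from 1648 to 72 for fulvestrant against vehicle, from 1681 to 60 for E2 plus fulvestrant against vehicle, from 1270 to 69 for E2 against E2 plus fulvestrant and from 10 to 1 for E2 against vehicle. With only the 2 groups compared and no replicate block, 0 of the 10 were called in those 3 comparisons. Of all genes, 0% were then called for fulvestrant against vehicle, 0.0227% for E2 plus fulvestrant against vehicle and 0.0605% for E2 against E2 plus fulvestrant. With so few genes called, these counts of 0 do not set the clock genes apart. A block of replicate 1 against the others gave 3 for E2 plus fulvestrant against vehicle (Per1, Per3 and Dbp, beside 13.8% of all genes), and quantile normalization gave 2 (Per1 and Per3, beside 11.6%). Without the variance trend, the fulvestrant difference by replicate 1 was called for 4. No called value changed sign, but 168 of 2130 single clock gene values under an alternative did while called in neither fit, such as Per2 for fulvestrant against vehicle (-0.22 with all samples, 0.09 at its highest with libraries left out). The counts of 0 for E2 against vehicle and of 8 for replicate number held in every alternative run. The cause of these changes was not tested. Count models on reads recovered from the scaled values (edgeR and DESeq2) were planned and not run.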
